A study of Mus musculus with 12 samples.

Results

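The nuclear-encoded subunits of the mitochondrial respiratory chain and ATP synthase were examined in mouse bone marrow-derived macrophages after knockdown of MOF, the lysine acetyltransferase encoded by Kat8. Members were taken by gene symbol alone (the Nduf subunit series, Sdha to Sdhd, the Uqcr series with Cyc1, the Cox series from Cox4 to Cox8, and the Atp5 series, without pseudogene rows), which gave 79 of the 14264 genes in the authors' tables. By complex, 35 genes belong to complex I, 4 to complex II, 9 to complex III, 14 to complex IV and 17 to complex V. Ndufa4, named for complex I, is counted with complex IV, where its protein is now placed. The macrophages were wild type by label and carried either a control short hairpin RNA (shCTRL) or one against MOF (shMOF), and each was left unstimulated or given the bacterial product lipopolysaccharide (LPS) at 100 ng/ml for 3 h, giving 4 groups of 3 libraries. The labels name 1 shMOF condition and no rescue, and do not say that the libraries came from separate animals or cultures, so the p-values measure only the spread between these samples.

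The respiratory chain passes electrons from NADH (complex I) and succinate (complex II) through ubiquinone to complex III, then by cytochrome c to complex IV, where oxygen is reduced. Complexes I, III and IV pump protons across the inner mitochondrial membrane, and ATP synthase (complex V) uses the return flow to make ATP. Every complex except II also needs subunits that mitochondrial DNA encodes. Macrophages given LPS are known to shift from respiration towards glycolysis and to use succinate oxidation by complex II in the inflammatory response.

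The authors deposited 1 table of shMOF against shCTRL for each state, with a mean normalized count, a log2 fold change and its standard error (SE) for each gene. The tables hold no values for single libraries, so effects below carry the authors' SE and the adjusted p of their DESeq2 test, and a gene is said to rise, fall or change when that p is under 0.05. Kat8 itself had a log2 fold change of -2.25 (SE 0.10) unstimulated and -2.31 (SE 0.13) at LPS 3 h per the authors' deposited tables, so its transcript was at 0.210 and 0.201 of control. All 12 macrophage markers examined were found, with mean normalized counts from 381 to 259735 (Lyz2), while markers of neutrophils (2 of 8 found), T and NK cells (1 of 8), B cells (2 of 6), dendritic cells (1 of 6) and erythroid or progenitor cells (2 of 6) were at 167 or below. Stromal and endothelial markers were all found (7 of 7), up to 667 for Col1a2, and 3 of them were higher with shMOF unstimulated and 4 at LPS 3 h. Of the scarce markers that were called, the progenitor genes Kit (-1.81, SE 0.38) and Cd34 (-0.93, SE 0.25) were lower unstimulated and Cd34 (-0.97, SE 0.36) at LPS 3 h, per the authors' deposited tables. The B cell gene Cd79b was higher in both states (0.34, SE 0.13, and 0.37, SE 0.14), and Ighm (1.77, SE 0.38) and the dendritic cell gene Zbtb46 (0.70, SE 0.20) were higher at LPS 3 h, per the authors' deposited tables. All 12 macrophage markers were higher with shMOF in unstimulated cells and 10 at LPS 3 h. All 10 proliferation markers were lower unstimulated (median -2.19), and 8 were lower and 1 higher at LPS 3 h. The part of these shifts in the results below was not tested, and in bulk RNA fewer cells of a type and less RNA per cell cannot be told apart.

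Most subunit transcripts kept close to control, and a small set fell in both states. In unstimulated cells 8 subunits rose and 15 fell, which is 29.1% of the members beside 39.1% of all genes called (21.3% higher and 17.8% lower). At LPS 3 h 10 rose and 13 fell, again 29.1%, beside 48.0% of all genes (28.1% higher and 20.0% lower). Among abundant genes, meaning a mean normalized count no lower than 500, which holds 73 of the 79 members, the share called was 53.5% unstimulated and 63.0% at LPS 3 h. The called share of the subunits was therefore under that of all genes in each state, and more so beside genes of like abundance, with no test made of that gap. Against a null of a log2 change of at most 0.25, 0 members rose and 4 fell unstimulated, and 1 rose and 5 fell at LPS 3 h. Against an empirical null scaled to the spread of the Wald statistic over all genes, which takes most of that spread as noise, Cox6c alone fell in each state and 0 rose. Median log2 fold changes of the members were -0.004 and -0.001, beside 0.03 and 0.03 over all genes.

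The sizes were small for most members. For all 56 members not called in unstimulated cells the 95% interval of the log2 fold change lay within 0.5 of zero, and for 46 of them within 0.25. The same held for all 56 members not called at LPS 3 h, with 49 within 0.25. Among genes with a mean of at least 500, 3182 were not called unstimulated, 3099 of them within 0.5 and 2421 within 0.25. At LPS 3 h 2530 such genes were not called, 2494 of them within 0.5 and 2036 within 0.25. Narrow intervals in uncalled genes were thus not particular to the subunits. A change of at least 0.5 on the log2 scale was seen in 3 members unstimulated and 6 at LPS 3 h. The standard deviation of the log2 fold change across members was 0.208 unstimulated and 0.236 at LPS 3 h, beside 0.312 and 0.346 across genes with a mean of at least 500. The median SE was nearly equal in the members (0.061 unstimulated) and in those genes (0.064).

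**Figure D1:**
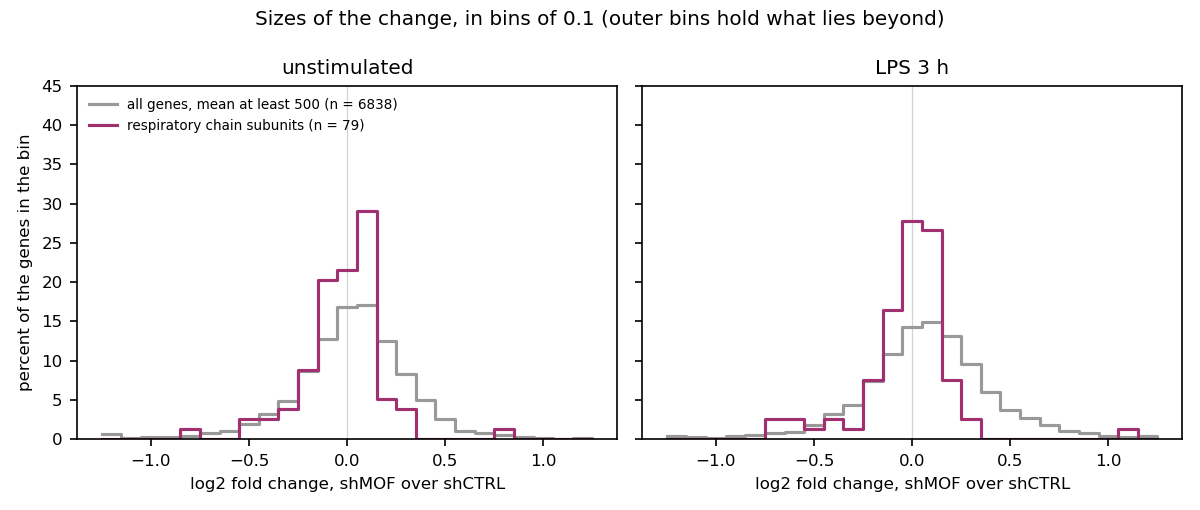
Distribution of log2 fold changes (shMOF over shCTRL, x axis, bins of 0.1) in percent of genes (y axis) for the 79 subunits and for the 6838 abundant genes (mean of at least 500), in each state. The subunits pile up near 0, with a standard deviation of 0.208 and 0.236 beside 0.312 and 0.346, and have a small tail on the lower side.

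The effects in the 2 states resembled each other member by member. Of the 23 calls in each state 17 were shared (73.9% of either list), with 12 members lower in both, 5 higher in both and none in opposite directions. Over all genes 65.5% of the unstimulated calls and 54.4% of those at LPS 3 h were called in the other state too, and among genes with a mean of at least 500 the shares were 69.9% and 59.3%. Over all genes 9.47% were lower in both states, 12.7% higher in both and 3.94% called in opposite directions, and 15.2% and 6.33% of the members were lower and higher in both. Across the 79 members the log2 fold changes of the states, which come from different libraries, had a Pearson r of 0.883 and a Spearman rho of 0.752. Across 12994 genes with a mean of at least 10 these were 0.487 and 0.426, and across the 50 members called in neither state r was 0.462. Genes are not independent replicates, and these correlations are descriptions.

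**Figure D2:**
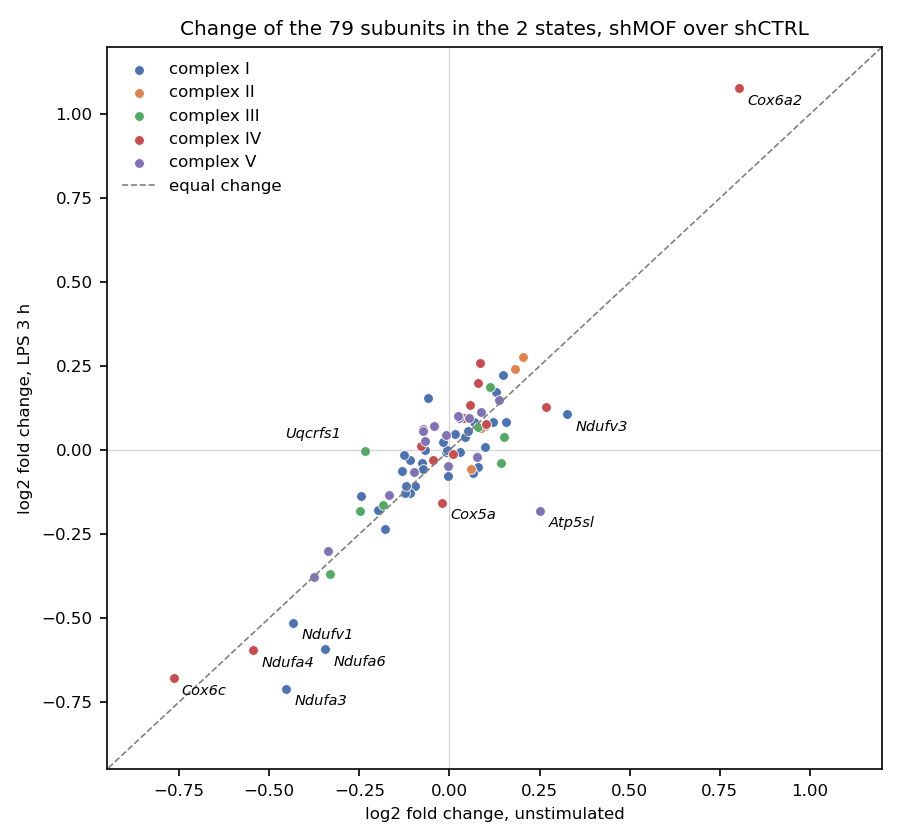
Log2 fold change of each of the 79 subunits in unstimulated cells (x axis) against LPS 3 h (y axis), coloured by complex, with a dashed line of equal change. Cox6c, Ndufa4, Ndufa3, Ndufa6 and Ndufv1 lie far down the diagonal, Cox6a2 lies alone at the top right, and Atp5sl and Uqcrfs1 lie off the line.

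The widest fall in unstimulated cells belonged to Cox6c (ENSMUSG00000014313.14, chr15:35925886-35938246, minus strand, GRCm38), a small accessory subunit of cytochrome c oxidase. In the authors' deposited tables its log2 fold change was -0.77 (SE 0.06) unstimulated and -0.68 (SE 0.05) at LPS 3 h, with DESeq2 adjusted p of 4.63e-39 and 1.81e-35. Its transcript thus fell to 0.588 of control unstimulated and to 0.624 at LPS 3 h. These falls differed by 0.09 (SE 0.08) between the states, with an adjusted p of 0.435 over all genes. Ndufa4 (ENSMUSG00000029632.7, chr6:11900292-11907497, minus strand), an accessory subunit of the same complex, fell by 0.54 (SE 0.07) unstimulated and by 0.60 (SE 0.06) at LPS 3 h on the log2 scale of the authors' deposited tables. The mean normalized counts of Cox6c and Ndufa4 were 2351 and 1868, so neither fall rests on a scarce transcript.

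Complex I held 5 of the 12 members that fell in both states. Ndufa3 (ENSMUSG00000035674.13, chr7:3617373-3620327, plus strand), a membrane-arm accessory subunit, was at -0.45 (SE 0.07) unstimulated and -0.71 (SE 0.07) at LPS 3 h per the authors' deposited tables. Ndufa6 (ENSMUSG00000022450.5, chr15:82350140-82354322, minus strand), an accessory subunit of the peripheral arm from the LYR protein family, was at -0.34 (SE 0.07) and -0.59 (SE 0.07) per the same deposited tables of the authors. Both falls were deeper at LPS 3 h, with differences of -0.26 (SE 0.10) for Ndufa3 and -0.25 (SE 0.10) for Ndufa6 and adjusted p of 0.0279 and 0.0423 over all genes. Ndufv1 (ENSMUSG00000037916.13, chr19:4007384-4012806, minus strand), the core subunit that binds FMN and takes electrons from NADH, was at -0.43 (SE 0.05) and -0.51 (SE 0.05) per the authors' deposited tables. Ndufv1 was the only one of the 7 nuclear-encoded core subunits of complex I to be called in either state. Ndufb9, another LYR-family subunit of the membrane arm, was at -0.18 (SE 0.07) and -0.23 (SE 0.06), and Ndufs5 at -0.20 (SE 0.07) and -0.18 (SE 0.07), per the authors' deposited tables.

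The other 30 subunits of complex I were called in 1 state or in none. Ndufb6, a membrane-arm subunit, fell in unstimulated cells only, at -0.25 (SE 0.08) and -0.14 (SE 0.08) at LPS 3 h per the authors' deposited tables. Risers in 1 state were Ndufv3 (0.33, SE 0.06) and Ndufa2 (0.16, SE 0.06) unstimulated, and Ndufa13 (0.22, SE 0.08) and Ndufs4 (0.17, SE 0.07) at LPS 3 h, per the authors' deposited tables. Ndufv3 is an accessory subunit beside Ndufv1, and its effect was lower at LPS 3 h by a difference of -0.22 (SE 0.08, adjusted p of 0.0317 over all genes). Ndufa13, also known as GRIM-19, is a membrane-arm subunit, and Ndufs4 an accessory subunit whose loss causes complex I deficiency. The 25 members called in neither state ran from -0.13 (Ndufa12) to 0.12 (Ndufb3) unstimulated and from -0.13 (Ndufb11) to 0.15 (Ndufb2) at LPS 3 h per the authors' deposited tables. The core subunits Ndufs1, Ndufs3, Ndufs7, Ndufs8 and Ndufv2, which carry the iron-sulfur clusters or the quinone site, were among these. By arm, 2 of 16 peripheral subunits rose and 2 fell unstimulated, beside 0 and 4 of 19 membrane-arm subunits. At LPS 3 h 1 rose and 2 fell in the peripheral arm, and 1 rose and 3 fell in the membrane arm.

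**Figure D3:**
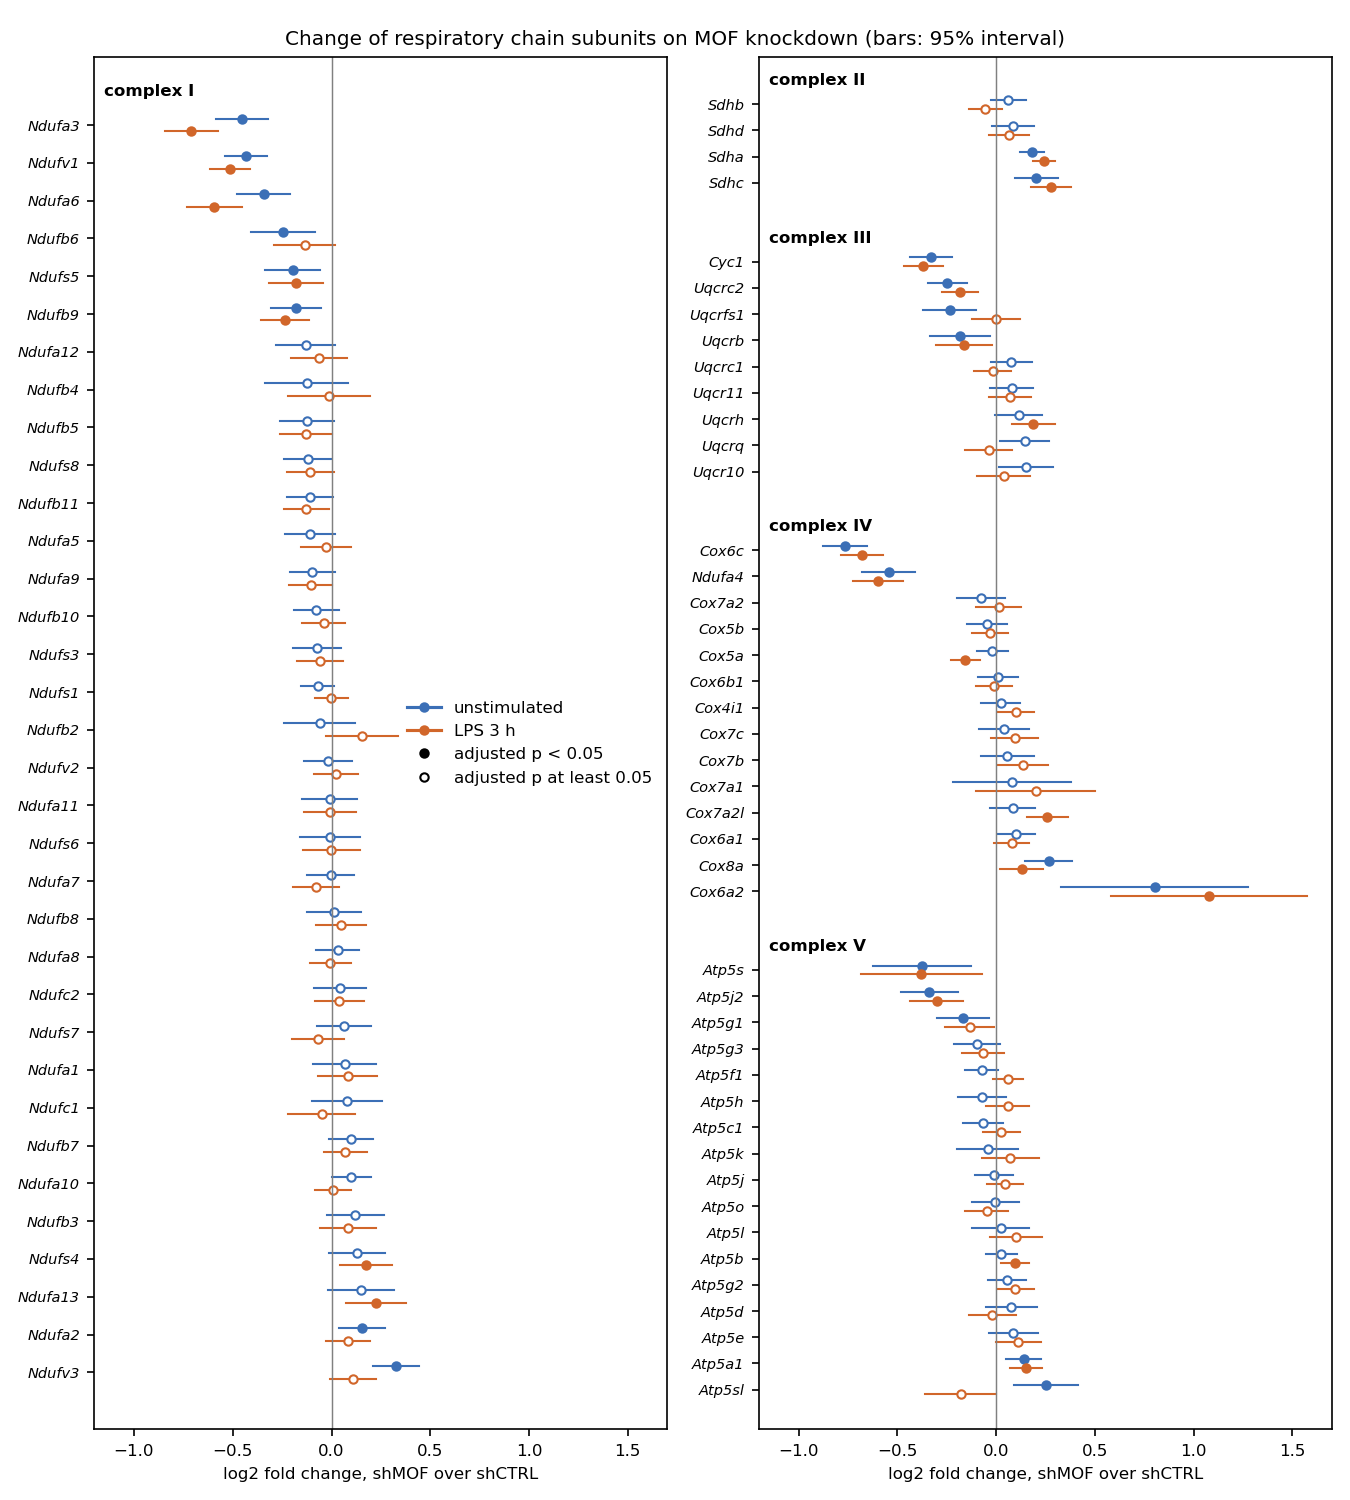
Log2 fold change of shMOF over shCTRL (x axis) with its 95% interval for 78 of the 79 subunits (rows, sorted within a complex by the unstimulated value), unstimulated in blue and LPS 3 h in orange, filled where the adjusted p was under 0.05. Falls of Cox6c, Ndufa4, Ndufa3, Ndufa6 and Ndufv1 stand out, while complex II has no value that passed on the lower side.

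Complex II, succinate dehydrogenase, was the only complex with calls in the higher direction alone in both states, among 4 genes. Sdha (ENSMUSG00000021577.13), the flavoprotein that oxidises succinate, was at 0.18 (SE 0.03) unstimulated and 0.24 (SE 0.03) at LPS 3 h per the authors' deposited tables. Sdhc (ENSMUSG00000058076.12), a membrane anchor with part of the ubiquinone site, was at 0.20 (SE 0.06) and 0.28 (SE 0.05) per the authors' deposited tables. These are rises of 13.4% and 18.1% for Sdha and of 15.1% and 21.2% for Sdhc. The iron-sulfur subunit Sdhb had 0.06 (SE 0.05) and -0.06 (SE 0.04) and the other anchor, Sdhd, 0.09 (SE 0.05) and 0.06 (SE 0.05), none past the threshold of the authors' deposited tables. Thus 2 of the 4 genes rose in each state.

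Complex III had 4 of 9 genes lower and 0 higher in unstimulated cells, and 3 lower and 1 higher at LPS 3 h. Cyc1 (ENSMUSG00000022551.7, chr15:76343523-76346260, plus strand), the cytochrome c1 subunit that hands electrons to cytochrome c, was at -0.33 (SE 0.05) and -0.37 (SE 0.05) per the authors' deposited tables. The core protein gene Uqcrc2 was at -0.25 (SE 0.05) and -0.18 (SE 0.05), and the accessory subunit gene Uqcrb at -0.18 (SE 0.08) and -0.16 (SE 0.07), per the authors' deposited tables. Uqcrfs1, the Rieske iron-sulfur protein, was at -0.24 (SE 0.07) unstimulated and -0.002 (SE 0.06) at LPS 3 h per the authors' deposited tables. It was the only subunit whose effect was higher at LPS 3 h by the test of the difference, at 0.23 (SE 0.09, adjusted p of 0.0378 over all genes). Uqcrh, the hinge subunit, rose at LPS 3 h only (0.19, SE 0.06, against 0.11, SE 0.06, unstimulated, per the authors' deposited tables). Both nuclear-encoded redox subunits, Cyc1 and Uqcrfs1, thus fell in unstimulated cells, whereas the core protein gene Uqcrc1 had 0.08 (SE 0.05) and -0.02 (SE 0.05) per the authors' deposited tables and was not called.

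In complex IV, beside Cox6c and Ndufa4, the ubiquitous subunit Cox8a rose in both states, at 0.27 (SE 0.06) and 0.13 (SE 0.06) per the authors' deposited tables. Cox5a, which with Cox4i1 lies next to the catalytic core, was at -0.02 (SE 0.04) unstimulated and fell by 0.16 (SE 0.04) at LPS 3 h per the authors' deposited tables. The difference of -0.14 (SE 0.05) between these states had an adjusted p of 0.0431 over all genes. Cox7a2l, a factor that joins complexes III and IV into supercomplexes, was at 0.08 (SE 0.06) and 0.26 (SE 0.05) per the authors' deposited tables and was called at LPS 3 h only. Its difference between states, 0.17 (SE 0.08), missed the threshold (adjusted p of 0.080 over all genes). Cox4i1, the abundant regulatory subunit, had 0.02 (SE 0.05) and 0.10 (SE 0.05) and was not called in either of the authors' deposited tables.

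Tissue isoforms were scarce and did not follow their ubiquitous partners in every case. Cox6a2, the heart and muscle form, had a mean normalized count of 32.6 against 3291 for the ubiquitous Cox6a1, so it supplies few of the transcripts of this subunit. Its log2 fold change was 0.80 (SE 0.24) unstimulated and 1.08 (SE 0.25) at LPS 3 h per the authors' deposited tables, the largest rise of any member. The 95% intervals were wide, from 0.33 to 1.28 and from 0.58 to 1.57. Cox6a1 had 0.10 (SE 0.05) and 0.08 (SE 0.04) and was not called per the authors' deposited tables. Cox7a1, the muscle form with a mean of 81.9, had 0.08 (SE 0.15) and 0.20 (SE 0.15), and Cox7a2 -0.08 (SE 0.06) and 0.01 (SE 0.06), none past the threshold of the authors' deposited tables. Cox4i2 and Ndufa4l2 were not analysed here.

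In ATP synthase 1 of the 5 genes of the catalytic F1 head was called unstimulated and 2 at LPS 3 h. Atp5a1, the alpha subunit of the F1 head, rose slightly in both states, at 0.14 (SE 0.05) and 0.15 (SE 0.04) per the authors' deposited tables. The catalytic beta subunit Atp5b, the most abundant member with a mean normalized count of 19043, was at 0.03 (SE 0.04) and 0.10 (SE 0.04) per the authors' deposited tables and was called at LPS 3 h. None of the 4 peripheral stalk genes (Atp5f1, Atp5h, Atp5j and Atp5o) was called in either state. Atp5j2, the f subunit of the membrane part, fell in both states, at -0.34 (SE 0.07) and -0.30 (SE 0.07) per the authors' deposited tables. Atp5g1, 1 of 3 genes for the same c-ring protein, was at -0.17 (SE 0.07) and -0.13 (SE 0.06) and was called unstimulated only per the authors' deposited tables. The more abundant Atp5g3 had -0.10 (SE 0.06) and -0.07 (SE 0.05), and Atp5g2 0.05 (SE 0.05) and 0.10 (SE 0.05), none called per the authors' deposited tables.

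Atp5s and Atp5sl carry the Atp5 name and are related factors, not subunits of the enzyme. Atp5s, coupling factor B, had a mean normalized count of 110 and fell by 0.37 (SE 0.13) and 0.38 (SE 0.16) on the log2 scale of the authors' deposited tables. Atp5sl, which the annotation names Dmac2 after its role in complex I assembly, was at 0.25 (SE 0.08) unstimulated and -0.18 (SE 0.09) at LPS 3 h per the authors' deposited tables. Its difference of -0.43 (SE 0.12, adjusted p of 0.00248 over all genes) was the widest of any member. Over the whole chain, the knockdown effect differed between the states for 6 of 79 members (7.59%), 1 higher and 5 lower at LPS 3 h. Over the 12994 genes tested 30.6% differed, 18.2% higher and 12.4% lower. If the errors of the effects in the 2 states had a correlation of -0.3, Atp5sl alone would pass.

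Set side by side, the complexes had overlapping ranges of change and medians close to 0. Unstimulated, called shares were 22.9% of complex I, 50% of complex II, 44.4% of complex III, 28.6% of complex IV and 29.4% of complex V. At LPS 3 h they were 20%, 50%, 44.4%, 42.9% and 23.5%. Over all genes the shares were 39.1% unstimulated and 48.0% at LPS 3 h. Among genes with a mean of at least 500 they were 53.5% and 63.0%, and each complex lay under these. Median log2 fold changes unstimulated were -0.02, 0.13, 0.08, 0.03 and -0.01 for complexes I to V, and at LPS 3 h -0.01, 0.15, -0.02, 0.09 and 0.04. Without the tissue isoforms and the supercomplex factor the complex IV median at LPS 3 h was 0.012. Lower calls outnumbered higher ones in complex I (6 against 2 of 35 unstimulated, 5 against 2 at LPS 3 h) and complex III. Complex II had 2 higher and 0 lower in each state. Of all genes 17.8% were lower and 21.3% higher unstimulated, and 20.0% and 28.1% at LPS 3 h. The lower share of complex I was thus not above that of all genes. Centred on the median of all genes, which was 0.03 in each state, the rises of Ndufa2 unstimulated and of Ndufs4, Cox8a and Atp5b at LPS 3 h missed the threshold. With 4 to 35 genes a complex and no test between them, the order of the complexes is a description only.

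A few proteins of these complexes fall outside the naming rule and are given for completeness. Ndufab1, the acyl carrier protein of complex I, was at -0.17 (SE 0.06) and -0.08 (SE 0.06) per the authors' deposited tables and was called unstimulated. The ATP synthase inhibitor gene Atpif1 was at 0.08 (SE 0.05) and 0.32 (SE 0.05) per the authors' deposited tables and rose at LPS 3 h. The ATP synthase membrane subunit gene Usmg5 had 0.02 (SE 0.07) and 0.09 (SE 0.06) and was called in neither of the authors' deposited tables.

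Levels differed far more between subunits than any change on knockdown. On the scale of mean normalized count per kb of exon, the median over subunits of the ubiquitous enzymes was 732 for complex I, 1567 for complex II, 1059 for complex III, 1944 for complex IV and 1485 for complex V. Complex II was the most even, from 1320 (Sdhc) to 2277 (Sdhd) per kb. Complex IV ran from 659 (Cox6c) to 6105 (Cox6b1) and complex V from 239 (Atp5l) to 4494 (Atp5b). Complex I spanned 44.4 (Ndufb2) to 2831 (Ndufa2), and Ndufb2 has long annotated exons (5628 bases) for its small protein. The exon length is the union over annotated transcripts, so a gene with long rarely used exons reads low. In 4 bins of 19 or 20 members from the lowest to the highest level per kb, 3, 0, 2 and 3 rose and 4, 7, 3 and 1 fell unstimulated. At LPS 3 h 2, 0, 2 and 6 rose and 3, 6, 2 and 2 fell, and the calls followed no steady order of level in either state.

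**Figure D4:**
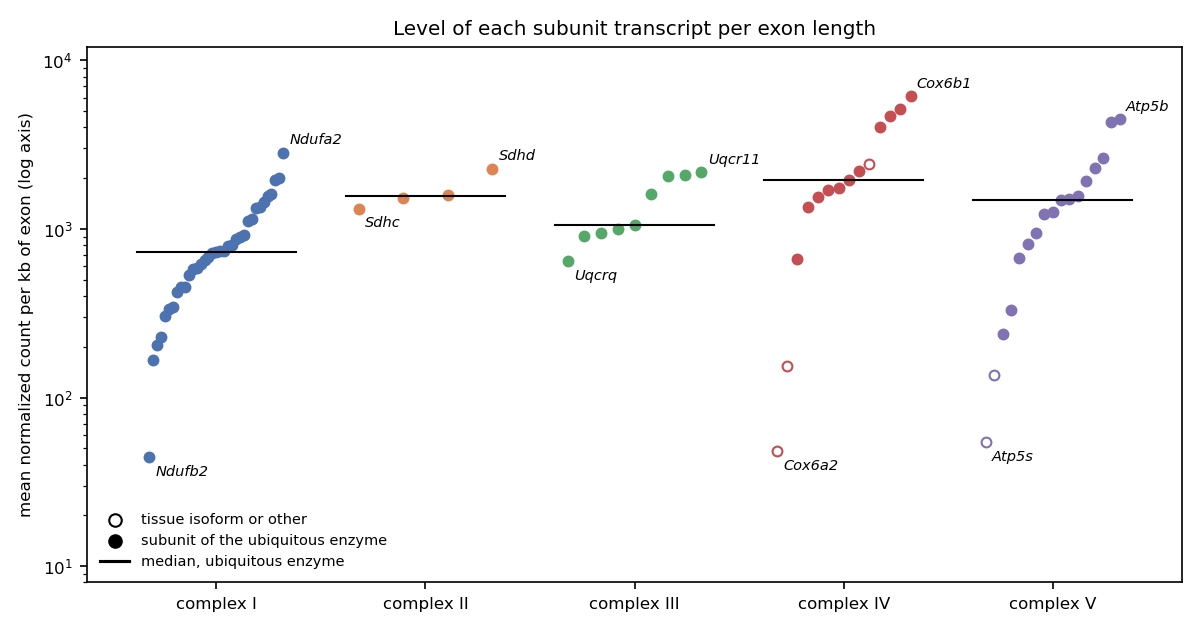
Mean normalized count per kb of exon (log y axis) of each subunit, by complex (x axis, members sorted by level), with open points for tissue isoforms and related factors and a line at the median of the ubiquitous enzyme. Complex IV has the highest median (1944) and complex I the lowest (732), and the complexes overlap.

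Subunit genes are short, with a median exon length of 1718 bases beside 4014 over all genes. Among genes with a mean of at least 500 and 1000 to 2000 exon bases, 49.2% were called unstimulated and 59.0% at LPS 3 h, while of the 28 members in that class 17.9% and 25% were called. The lower called share was thus also present among genes of like length, again without a test. On chromosome 15, 4 of the 5 members there (Cox6c, Ndufb9, Cyc1 and Ndufa6) fell in both states, a grouping noticed after the values were seen. They are not neighbours, and 10.7% of all 513 genes of this chromosome fell in both states beside 9.31% of all genes with a position.

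Promoters of the respiratory chain are known for binding sites of NRF1, of the ETS factor GABP and of YY1. Of the 79 members 63 had a promoter entry in RefSeq (GRCm38.p6), which spans 250 bases before to 50 after a start site. Exact matches on either strand were sought for the NRF1 motif (GCGCA and GCGC with 1 free base between them), the GABP motif CCGGAAG and the YY1 motif AAGATGGC. The GABP and YY1 motifs can share the letters AAG, and a stretch that holds both counts for each. At least 1 was held by 54.0% of the members beside 14.7% of 32851 RefSeq promoters. The 2 sides are unlike, since each member has 1 entry, the one nearest its annotated start. The 32851 are all entries, with alternative starts, and were not limited to genes measured here. Some entries used lie far from the annotated start, at 3643 bases for Atp5d, 2997 for Cox7a2l, 1305 for Atp5g2 and 521 for Atp5j2. The NRF1 motif was in 25.4% of members and 4.60% of all promoters, the GABP motif in 23.8% and 8.86%, and the YY1 motif in 12.7% and 2.75%. Of the 6 entries for members that fell in both states, 2 held the NRF1 motif, 0 the GABP motif and 2 the YY1 motif. Of the 45 entries for members called in neither state, 13, 12 and 5 held them. Cox6c, Cyc1, Uqcrc2, Uqcrb, Sdhc and Ndufb9 are among the members without an entry used here.

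The promoters of 6 members are printed 5' to 3' on the gene's strand to show this range, with motif matches in capitals: Ndufa3 (chr7:3617123-3617422, plus strand) and Atp5j2 (chr5:145191492-145191791, minus strand), which fell and hold the YY1 motif, Ndufa6 (chr15:82354242-82354541, minus strand), which fell and holds the NRF1 motif, Ndufv1 (chr19:4012706-4013005, minus strand), which fell and holds none of the 3, Sdha (chr13:74350191-74350490, minus strand), which rose and holds the NRF1 motif 3 times, and Cox8a (chr19:7217567-7217866, minus strand), which rose and holds the GABP motif 2 times on the opposite strand.
Ndufa3: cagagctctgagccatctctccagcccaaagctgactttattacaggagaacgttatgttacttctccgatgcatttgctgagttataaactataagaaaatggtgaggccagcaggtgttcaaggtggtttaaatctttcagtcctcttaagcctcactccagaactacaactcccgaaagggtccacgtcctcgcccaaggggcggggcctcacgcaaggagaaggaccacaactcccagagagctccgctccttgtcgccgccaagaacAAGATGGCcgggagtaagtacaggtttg
Atp5j2: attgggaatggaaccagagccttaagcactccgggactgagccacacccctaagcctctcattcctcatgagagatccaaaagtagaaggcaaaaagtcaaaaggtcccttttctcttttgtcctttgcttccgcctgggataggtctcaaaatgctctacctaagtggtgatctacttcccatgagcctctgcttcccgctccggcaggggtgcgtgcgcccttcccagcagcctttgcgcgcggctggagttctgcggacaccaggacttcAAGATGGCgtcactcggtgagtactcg
Ndufa6: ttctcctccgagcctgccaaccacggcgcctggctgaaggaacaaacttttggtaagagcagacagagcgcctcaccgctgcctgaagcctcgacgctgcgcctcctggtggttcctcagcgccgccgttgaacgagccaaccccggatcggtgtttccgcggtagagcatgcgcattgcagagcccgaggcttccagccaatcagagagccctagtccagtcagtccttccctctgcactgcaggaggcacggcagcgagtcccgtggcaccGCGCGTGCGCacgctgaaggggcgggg
Ndufv1: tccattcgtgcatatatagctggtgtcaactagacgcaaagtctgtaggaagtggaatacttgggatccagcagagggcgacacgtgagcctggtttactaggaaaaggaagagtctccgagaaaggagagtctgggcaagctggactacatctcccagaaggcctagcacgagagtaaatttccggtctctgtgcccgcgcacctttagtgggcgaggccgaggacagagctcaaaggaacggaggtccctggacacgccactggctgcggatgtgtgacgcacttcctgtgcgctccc
Sdha: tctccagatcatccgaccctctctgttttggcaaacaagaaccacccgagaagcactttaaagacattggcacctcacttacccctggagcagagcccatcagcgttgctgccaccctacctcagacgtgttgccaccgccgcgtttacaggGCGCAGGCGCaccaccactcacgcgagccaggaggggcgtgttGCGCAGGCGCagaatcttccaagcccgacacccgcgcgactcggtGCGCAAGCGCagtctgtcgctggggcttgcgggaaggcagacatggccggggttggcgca
Cox8a: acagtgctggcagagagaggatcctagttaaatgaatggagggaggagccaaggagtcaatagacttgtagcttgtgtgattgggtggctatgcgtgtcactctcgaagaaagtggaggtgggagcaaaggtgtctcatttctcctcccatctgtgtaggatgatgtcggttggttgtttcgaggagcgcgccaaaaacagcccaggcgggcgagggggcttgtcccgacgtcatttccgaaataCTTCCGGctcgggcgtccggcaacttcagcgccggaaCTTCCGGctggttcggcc
A match marks letters only and is no proof of binding. Falling and rising subunits both held the NRF1 motif, and members with each motif were also found among those not called.

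Of the 28 members with a gene of the tables starting within 1000 bases on the other strand, 8 members and 9 partners were called in unstimulated cells, with 1 pair in the same direction and 0 opposite. At LPS 3 h 8 of the 28 members and 14 partners were called, with 2 pairs in the same direction and 0 opposite. These were Ndufa4 with Phf14, and Uqcrb with the scarce Gm10767. Over all genes 39.1% were called unstimulated and 48.0% at LPS 3 h, and of the members 29.1% in each state. Whether such pairs matched in direction more often than other genes was not tested. Sdha, which rose, starts 29 bases from Ccdc127, which had -0.12 (SE 0.06) in both of the authors' deposited tables and was not called.

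The assembly factors of the complexes are proteins that help to build them without staying in them. Of 50 assembly factors for complexes I to V, 7 rose and 14 fell unstimulated (42% called, median -0.08) and 5 rose and 19 fell at LPS 3 h (48% called, median -0.19), which is near the 39.1% and 48.0% of all genes called. Lower calls outnumbered higher ones in both states, whereas over all genes 17.8% and 20.0% were lower and 21.3% and 28.1% higher. Complex I has 16 factors when the member Atp5sl, which the 50 leave out, is counted. Of these 16, 2 rose (Atp5sl and Tmem261) and 6 fell unstimulated, and 0 rose and 8 fell at LPS 3 h. Ecsit, a complex I assembly factor that also acts in Toll-like receptor signalling, was at -0.29 (SE 0.12) and -0.97 (SE 0.13) per the authors' deposited tables, a difference of -0.68 (SE 0.17, adjusted p of 0.000672 over all genes). Ndufaf1, an early complex I factor, was at -0.28 (SE 0.09) and -0.43 (SE 0.10), and Ndufaf4 at -0.45 (SE 0.11) and -0.19 (SE 0.10, not called), per the authors' deposited tables. Tmem261 was at 0.39 (SE 0.07) unstimulated and 0.11 (SE 0.07) at LPS 3 h per the authors' deposited tables.

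For complex III, 1 of 6 factors rose and 1 fell unstimulated and 0 rose and 4 fell at LPS 3 h. Bcs1l, which inserts the Rieske protein, was at -0.19 (SE 0.10) and -0.73 (SE 0.13), and Ttc19 at -0.52 (SE 0.12) and -0.11 (SE 0.09), per the authors' deposited tables. Of 22 complex IV factors 3 rose and 6 fell unstimulated and 3 rose and 4 fell at LPS 3 h. Coa4 was at -0.34 (SE 0.10) and -0.93 (SE 0.12), Cmc2 at -0.76 (SE 0.11) and -0.46 (SE 0.13), and Cmc1 at -0.43 (SE 0.08) and -0.63 (SE 0.09) per the authors' deposited tables. The copper chaperone gene Sco1 moved the other way, at -0.04 (SE 0.08) unstimulated and 0.39 (SE 0.07) at LPS 3 h per the authors' deposited tables. Of 4 complex II factors 2 rose and 0 fell unstimulated and 1 rose and 1 fell at LPS 3 h, with Sdhaf4 at 0.29 (SE 0.10) and 0.47 (SE 0.10) per the authors' deposited tables. All 3 complex V factors were called at LPS 3 h, Atpaf1 at -0.44 (SE 0.11), Atpaf2 at -0.28 (SE 0.09) and Tmem70 at 0.32 (SE 0.06) per the authors' deposited table.

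Of 21 genes for cytochrome c, coenzyme Q synthesis and other electron donors, 3 rose and 6 fell unstimulated and 5 rose and 7 fell at LPS 3 h. These are 42.9% and 57.1% called, beside 39.1% and 48.0% of all genes. Cycs, cytochrome c itself, was at -0.59 (SE 0.08) unstimulated and -0.15 (SE 0.07) at LPS 3 h per the authors' deposited tables, where only the first was called. Dhodh, which feeds electrons from pyrimidine synthesis to ubiquinone, fell in both states, at -0.67 (SE 0.12) and -0.87 (SE 0.14) per the authors' deposited tables. Coq5, a methyltransferase of coenzyme Q synthesis, was at -0.22 (SE 0.07) and -0.52 (SE 0.08), and Gpd2, the mitochondrial glycerol phosphate dehydrogenase, at 0.24 (SE 0.07) and 0.36 (SE 0.05) per the authors' deposited tables.

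Of 18 genes for mitochondrial transcription and its regulators 2 rose and 1 fell unstimulated, and 6 rose and 5 fell at LPS 3 h. The called share was 16.7% and then 61.1%, while over all genes it was 39.1% and 48.0%. Ppargc1b, a coactivator of mitochondrial genes, was at -0.17 (SE 0.14) and 0.64 (SE 0.08), Gabpa at 0.10 (SE 0.06) and 0.34 (SE 0.05), and Nrf1 at -0.09 (SE 0.07) and 0.22 (SE 0.06) per the authors' deposited tables. Each of the 3 was called at LPS 3 h only, and each difference between states passed over all genes, at 0.82, 0.24 and 0.30. Esrra was higher in both states, at 0.32 (SE 0.06) and 0.16 (SE 0.06), and Hcfc1 was at 0.16 (SE 0.07) and -0.20 (SE 0.07) per the authors' deposited tables. Pprc1 was at -0.37 (SE 0.07) unstimulated and 0.03 (SE 0.06) at LPS 3 h, and Yy1 at 0.05 (SE 0.05) and 0.03 (SE 0.05), per the authors' deposited tables. Peo1, the mitochondrial helicase Twinkle, was at 0.09 (SE 0.12) and -1.13 (SE 0.18), and Tfam, which packages mitochondrial DNA, at 0.07 (SE 0.08) and 0.18 (SE 0.07), both called at LPS 3 h per the authors' deposited table. Ppargc1a was not analysed here.

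Of the 13 subunits that mitochondrial DNA encodes, 0 were called unstimulated, beside 39.1% of all genes, and 6 rose at LPS 3 h. The called share at LPS 3 h, 46.15%, was near the 48.0% of all genes (28.1% higher and 20.0% lower). The 6 that rose (mt-Nd1, mt-Nd2, mt-Nd4, mt-Nd5, mt-Cytb and mt-Co1) were the 6 with the highest mean normalized counts of the 13, at log2 fold changes of 0.19 to 0.26 per the authors' deposited table. The other 7 had a median of -0.30 at LPS 3 h, with 5 below zero and none called. Their SE was larger, from 0.20 (mt-Atp6) to 0.32 (mt-Nd6). Their mean normalized counts ran only from 20.1 (mt-Nd4l) to 596 (mt-Co2), beside 230806 for mt-Co1, and why they were so low was not tested. Of these 7, mt-Nd3 (0.20, SE 0.26) and mt-Nd6 (0.44, SE 0.32) lay within or above the range of the 6, per the authors' deposited table. Over all 13 the median at LPS 3 h was 0.20. A rise was thus called only in the 6 abundant transcripts, and its absence in the other 7 was not shown. Nuclear-encoded subunits, called or not, had medians at LPS 3 h of -0.01 in complex I and -0.02 in complex III. In complex IV the median was 0.09, or 0.012 without tissue isoforms and the supercomplex factor.

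**Figure D5:**
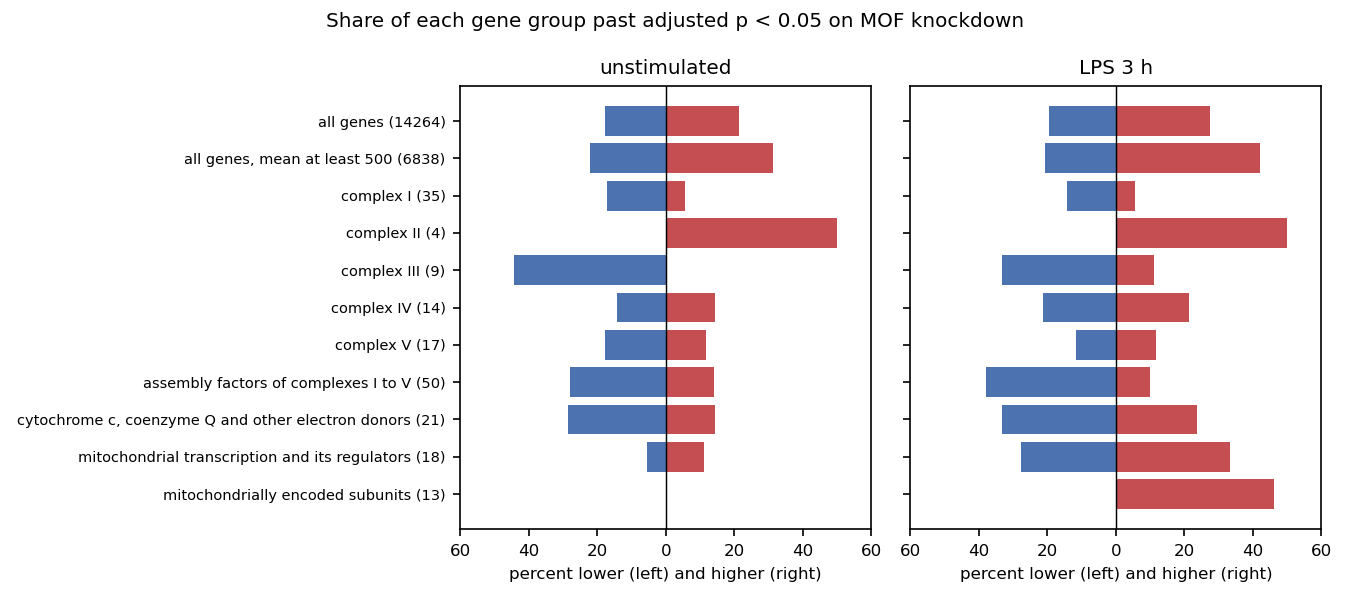
Percent of each gene group that was lower (left, blue) and higher (right, red) with shMOF at an adjusted p under 0.05, in each state, with the number of genes in brackets. Complex I had 22.9% called unstimulated and 20% at LPS 3 h, beside 39.1% and 48.0% of all genes, and the assembly factors had 14 and 19 of 50 lower and 7 and 5 higher.

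Counting could blur some of these genes. An annotated near-identical copy (at least 95% identity over at least 80% of the coding sequence) exists for 20 members, and for the 14 whose copy is in the tables it reached at most 3.91% of the member's mean normalized count. Exons of 25 members overlap a gene on the opposite strand and of 5 a gene on the same strand. The libraries were stranded, yet the sources used here do not say whether counting used strand. The largest shares of a member's exon bases lay in Ndufb6 (39.0%, with Smim27), Ndufa13 (30.0%, with Tssk6), Uqcrc2 (19.7%, with Pdzd9) and Ndufb9 (19.5%, with Gm49356 on the same strand). Smim27 and Tssk6 are scarce beside these members, with mean normalized counts of 46.5 and 25.8, and Pdzd9 and Gm49356 were not analysed here. Cox6c shares 250 exon bases (7.01%) with Vps13b, whose mean normalized count was 1416. Values of members that share exon bases are uncertain to that extent.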

How the data were processed

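Libraries were made from RNA of mouse bone marrow-derived macrophages with a stranded mRNA kit and read in pairs of 100 bp, and RNA of all samples was extracted at the same time, per the labels' protocols. The submitters' processing notes name DESeq2 and the mm10 build. Not given in the sources used here are the aligner, the counter, the annotation release, the DESeq2 version and the use of strand in counting. Per the file headers, the authors deposited, for each state and gene, a mean of normalized counts (a signal, the same in both tables), a log2 fold change with its SE, a Wald statistic (a score), a p-value and an adjusted p-value. Dividing the fold change by its SE gave the deposited Wald score, with gaps of at most 1.53e-13, and the deposited adjusted p-value equalled a Benjamini-Hochberg adjustment of the authors' p-values to within 1.39e-15. For 277 genes of the LPS table, none of them a member, no adjusted p is given. Depth per library is unknown, so precision is known only through the SE.

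These deposited values were taken unchanged, at a threshold of 0.05. The difference between states was tested by subtracting the log2 fold changes and dividing by the square root of the sum of both squared SE, and its two-sided normal p was adjusted over 12994 genes with a mean of at least 10 (Python 3.11.15, scipy 1.17.1). This takes the errors as uncorrelated. On simulated data for this difference, over 12994 genes, 60.0% of genes with a true difference of 0.5 and 83.0% of those with 1.0 were recovered, with 6 false calls of 149. The simulation changed 100 genes by each amount, drawn from genes of any level, whereas 30.6% of genes differed in the data. Its errors were uncorrelated and normal with the deposited SE, as the test assumes. The shares recovered are thus not those for the subunits. Intervals of 95% are 1.96 SE either side. Positions and exon lengths are from GENCODE M21 (GRCm38, which is mm10), copies from BLAST+ 2.17.0 on coding sequences. Named are Kat8, every member called in a state or in the difference, core subunits and paralogue pairs, and of each other list up to 3 members with the smallest p in each state together with chosen regulators. Members and lists were chosen with earlier results of these data known. No set test was run. Alternatives were centring, other adjustment sets, a mean of at least 50, a threshold of 0.01, a minimum change, an empirical null, correlated errors, other complex membership and transcript length. A few of the genes so chosen have no result reported here.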

Additional observations from a re-analysis of the deposited data

Results flagged for a closer look

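Of the genes named under the rule for named genes (every subunit, of each other list the 3 with the smallest p in each state, and chosen regulators), those given here had a knockdown effect that differed between LPS 3 h and unstimulated cells by the test of the difference, with values given as the LPS 3 h log2 fold change minus the unstimulated one and p adjusted over all genes. Among the subunits these were Atp5sl (-0.43, adjusted p 0.00248), Cox5a (-0.14, adjusted p 0.0431), Ndufa3 (-0.26, adjusted p 0.0279), Ndufa6 (-0.25, adjusted p 0.0423), Ndufv3 (-0.22, adjusted p 0.0317) and Uqcrfs1 (0.23, adjusted p 0.0378). Uqcrfs1, the Rieske protein, fell in unstimulated cells alone, and Ndufa3 and Ndufa6 fell further at LPS 3 h.

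Over the whole lists, 16 of 50 assembly factors (32%), 8 of 21 electron carrier genes (38.1%) and 9 of 18 genes for mitochondrial transcription (50%) differed. Over all genes tested 30.6% differed, so the share of the assembly factors was near that of all genes. Others than those named here also passed. Among the named ones the effect was lower at LPS 3 h for Peo1 (-1.23, adjusted p 1.54e-07), Ecsit (-0.68, adjusted p 0.000672), Coa4 (-0.59, adjusted p 0.000821), Bcs1l (-0.54, adjusted p 0.00582), Uqcc3 (-0.51, adjusted p 0.000197), Sdhaf1 (-0.45, adjusted p 0.0329), Tmem126b (-0.44, adjusted p 2.92e-05), Hcfc1 (-0.36, adjusted p 0.000964), Coq5 (-0.30, adjusted p 0.0121), Tmem261 (-0.29, adjusted p 0.0183), Uqcc1 (-0.24, adjusted p 0.0111) and Sdhaf2 (-0.17, adjusted p 0.0374). It was higher at LPS 3 h for Ppargc1b (0.82, adjusted p 7.8e-06), Cycs (0.44, adjusted p 0.000341), Sco1 (0.43, adjusted p 0.000639), Ttc19 (0.41, adjusted p 0.0234), Pprc1 (0.41, adjusted p 0.000322), Tmem70 (0.33, adjusted p 0.0036), Nrf1 (0.30, adjusted p 0.00867) and Gabpa (0.24, adjusted p 0.00871). Among the mitochondrially encoded subunits it was higher for mt-Co1 (0.20, adjusted p 0.0314), mt-Cytb (0.26, adjusted p 0.0183), mt-Nd2 (0.34, adjusted p 0.00584), mt-Nd4 (0.23, adjusted p 0.0425) and mt-Nd5 (0.31, adjusted p 0.0195).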

How the results depend on the processing

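No paired analysis was possible because the tables hold no values per library, although the labels number the replicates alike in each group, and leaving out each replicate in turn could not be run for the same reason. Over 495 repeats of the results of single subunits, 386 kept their side of the threshold, 107 kept the direction and missed the threshold, and 2 passed newly. Of the results called under the main settings 0 reversed, and direction was not compared for results that were not called. Unstimulated, 8 subunits rose and 15 fell; the 15 became 9 at a threshold of 0.01, the pair became 0 and 4 when only changes beyond 0.25 were tested for, and 0 and 1 against the empirical null. At LPS 3 h the 10 and 13 became 1 and 5, and 0 and 1, under the same settings. For the difference between states, 1 higher and 5 lower became 3 higher with an error correlation of 0.3, 0 and 1 with -0.3, and 0 and 1 at a threshold of 0.01. With tissue isoforms and related factors left out, complex V had 3 calls in place of 5 unstimulated, and the complex IV median at LPS 3 h was 0.012 in place of 0.086. With the longest transcript as length, the complex V median level was 2448 per kb in place of 1485. Counting Ndufa4 with complex I left the number of calls of each complex within 1.5 times, while lower calls of complex IV went from 2 to 1 unstimulated and from 3 to 2 at LPS 3 h. Only the SE bounds what these data can show, with a median of 0.061 over the subunits unstimulated and 0.059 at LPS 3 h.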
